A study of Mus musculus with 6 samples.

Results

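The cell cycle genes described here are 38 genes of DNA replication and of mitosis, picked by a list of names from the 51789 genes of the deposited count table. They serve as a readout of dividing cells in neutrophils taken from mouse bone marrow. All 38 were found in the table. Granulocytes were selected from marrow with beads against Ly6G, a surface protein of neutrophils, to a purity above 95% as the labels give it. Their polyadenylated RNA was sequenced with the Lexogen QuantSeq kit, which counts transcripts by tags near their 3′ ends. There were 2 groups of 3 samples, WT (Snph label: control) and KO for Snph. That gene encodes syntaphilin, which ties mitochondria down on microtubules. No strain, age, sex, deleted allele or treatment of the mice is given in the sources used here, nor is it stated whether replicates were separate animals. The p-values therefore measure only how far these samples spread, and that spread may be technical.

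Dividing cells make the proteins of the cycle in waves. Before and during S phase, E2F factors switch on genes for loading and copying DNA, such as the Mcm helicase subunits, Pcna and the enzymes of nucleotide supply. Later, in G2 and mitosis, a second wave driven through CHR and CCAAT promoter elements makes cyclin B, the mitotic kinases, the spindle motors and the proteins of the centromere. In the neutrophil lineage division ends at the myelocyte stage, and band and segmented neutrophils have left the cycle, so that transcripts of these genes in a marrow preparation are usually read as coming from precursors. The libraries here are of bulk RNA: the cells that carried the transcripts were not identified, and fewer cells of a type cannot be told apart from less RNA per cell.

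The members' promoters were searched for the letters of these elements. RefSeq promoter windows on GRCm38.p6, each from 250 bases before to 50 bases after its own annotated start, were matched by symbol for 31 of the 38 members. There were 32 windows in all because Mcm7 has 2. The start that a window uses can differ from the GENCODE gene position given below. Positions of matches are counted from the start that the window uses. The motifs searched on both strands were TTTGAA for the CHR element, CCAAT for the CCAAT box, and TTTCCCGC, TTTGGCGC, TTTGCCGC and TTTCGCGC for E2F. Cdk1 was the one mitotic window that held letters of all 3 motifs. With it, the 5 windows printed here show the mitotic pattern (Ube2c and Kif23) and replication genes with E2F letters (Mcm5 and Mcm6). They are Ube2c at chr2:164769679-164769978 on the plus strand, Kif23 at chr9:61946750-61947049 on the minus strand, Cdk1 at chr10:69352863-69353162 on the minus strand, Mcm5 at chr8:75109259-75109558 on the plus strand and Mcm6 at chr1:128359656-128359955 on the minus strand. Each is written 5′ to 3′ on the gene's strand, and capitals mark every match to one of the motifs, reverse complements included.
Ube2c: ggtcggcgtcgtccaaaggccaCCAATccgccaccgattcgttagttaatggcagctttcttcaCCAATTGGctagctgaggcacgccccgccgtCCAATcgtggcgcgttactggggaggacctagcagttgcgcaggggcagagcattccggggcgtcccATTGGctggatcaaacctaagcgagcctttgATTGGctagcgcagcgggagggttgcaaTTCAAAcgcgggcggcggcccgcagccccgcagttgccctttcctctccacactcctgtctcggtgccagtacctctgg
Kif23: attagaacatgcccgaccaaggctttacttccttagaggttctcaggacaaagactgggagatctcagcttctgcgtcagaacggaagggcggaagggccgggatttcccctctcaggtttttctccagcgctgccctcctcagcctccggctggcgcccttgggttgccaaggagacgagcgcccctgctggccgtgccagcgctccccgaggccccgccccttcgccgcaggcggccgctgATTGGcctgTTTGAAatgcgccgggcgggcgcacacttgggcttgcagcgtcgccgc
Cdk1: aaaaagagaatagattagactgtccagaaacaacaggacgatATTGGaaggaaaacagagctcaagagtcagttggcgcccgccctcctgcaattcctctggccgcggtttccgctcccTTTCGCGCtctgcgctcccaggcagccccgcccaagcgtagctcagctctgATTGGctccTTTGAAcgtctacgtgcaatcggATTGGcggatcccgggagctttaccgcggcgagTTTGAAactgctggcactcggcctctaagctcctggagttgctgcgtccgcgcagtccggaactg
Mcm5: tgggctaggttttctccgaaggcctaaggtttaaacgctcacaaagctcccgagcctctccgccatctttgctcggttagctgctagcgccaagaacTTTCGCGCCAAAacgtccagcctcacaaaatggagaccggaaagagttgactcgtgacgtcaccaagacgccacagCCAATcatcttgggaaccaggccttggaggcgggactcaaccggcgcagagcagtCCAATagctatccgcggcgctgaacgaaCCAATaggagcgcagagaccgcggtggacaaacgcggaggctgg
Mcm6: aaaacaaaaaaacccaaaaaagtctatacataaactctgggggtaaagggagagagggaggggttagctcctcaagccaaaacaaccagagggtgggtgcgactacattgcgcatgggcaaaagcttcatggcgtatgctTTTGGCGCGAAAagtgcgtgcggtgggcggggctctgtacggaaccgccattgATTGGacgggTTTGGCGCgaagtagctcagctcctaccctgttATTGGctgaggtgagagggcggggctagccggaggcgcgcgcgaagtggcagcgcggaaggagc
TTTGAA letters stood in 12 of 17 windows of mitosis members (70.6%) and in 1 of 12 windows of DNA synthesis members (8.33%), that of Mcm2, against 17.9% of all 32851 windows. The mitosis members that held them were Cenpa, Cenpf, Kif11, Kif22, Kif23, Aurka, Bub1b, Ccnb2, Cdc20, Cdk1, Plk1 and Ube2c, and Hmgb2, Mki67 and Top2a held them as well. Of these 16 member windows, 14 had a match within 50 bases of the start, and such a match stood in 43.8% of member windows and 4.94% of all windows. In Cdk1 the letters began 71 and 15 bases before the start, in Ube2c 29 bases before it on the other strand, and in Kif23 at base 3 after it, close to a CCAAT match 7 bases before the start. CCAAT letters were present in 27 of 32 member windows (84.4%), with 15 of 17 for mitosis and 9 of 12 for DNA synthesis, against 37.4% of all windows. E2F letters were present in 5 of 32 member windows (15.6%), those of Mcm3, Mcm5, Mcm6, Mcm7 and Cdk1, against 2.26% of all. That was 4 of 12 windows of DNA synthesis members (33.3%), with 0 of 5 for nucleotide supply, and 1 of 17 of mitosis members (5.88%). In Mcm5 and Mcm6 a pair of E2F matches on opposite strands overlapped, beginning 153 and 149 bases before the start in Mcm5 and 110 and 106 bases before it in Mcm6. A match between different motifs that shared a base occurred once among the member windows. These are matches of letters and not measured sites of binding.

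Cell cycle transcripts were present in every library at low levels, and no member differed between the groups past the threshold. Together the 38 genes took 0.127, 0.112 and 0.122% of all counts in WT-labelled libraries 1, 2 and 3 and 0.108, 0.107 and 0.105% in KO-labelled libraries 1, 2 and 3. S100a8, a calcium-binding protein of mature neutrophils, alone took 11.9, 12.4 and 11.6% against 13.7, 13.2 and 12.7%. On these raw shares both separated the labels, the members lower and S100a8 higher under the KO label. Hmgb2 alone made up a large part of the members' share, and without Hmgb2 the raw shares of the other members overlapped. TMM factors, which correct for such differences in makeup, were 1.02 to 1.06 for the WT-labelled libraries and 0.95 to 0.98 for the KO-labelled ones, and on the TMM scale the members' sums overlapped. As CPM (counts scaled to library size, here with TMM factors), their sum was 1225, 1100 and 1150 in WT-labelled libraries 1, 2 and 3, and 1124, 1127 and 1066 in KO-labelled libraries 1, 2 and 3. The WT-labelled mean was 1158.5 ± 62.7 and the KO-labelled mean 1105.9 ± 34.3 (SD, n = 3 each). Hmgb2 was the most abundant member in every library. Without Hmgb2 the sums were 646, 518 and 581 CPM under the WT label and 568, 596 and 524 CPM under the KO label, and the groups overlapped.

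**Figure D1:**
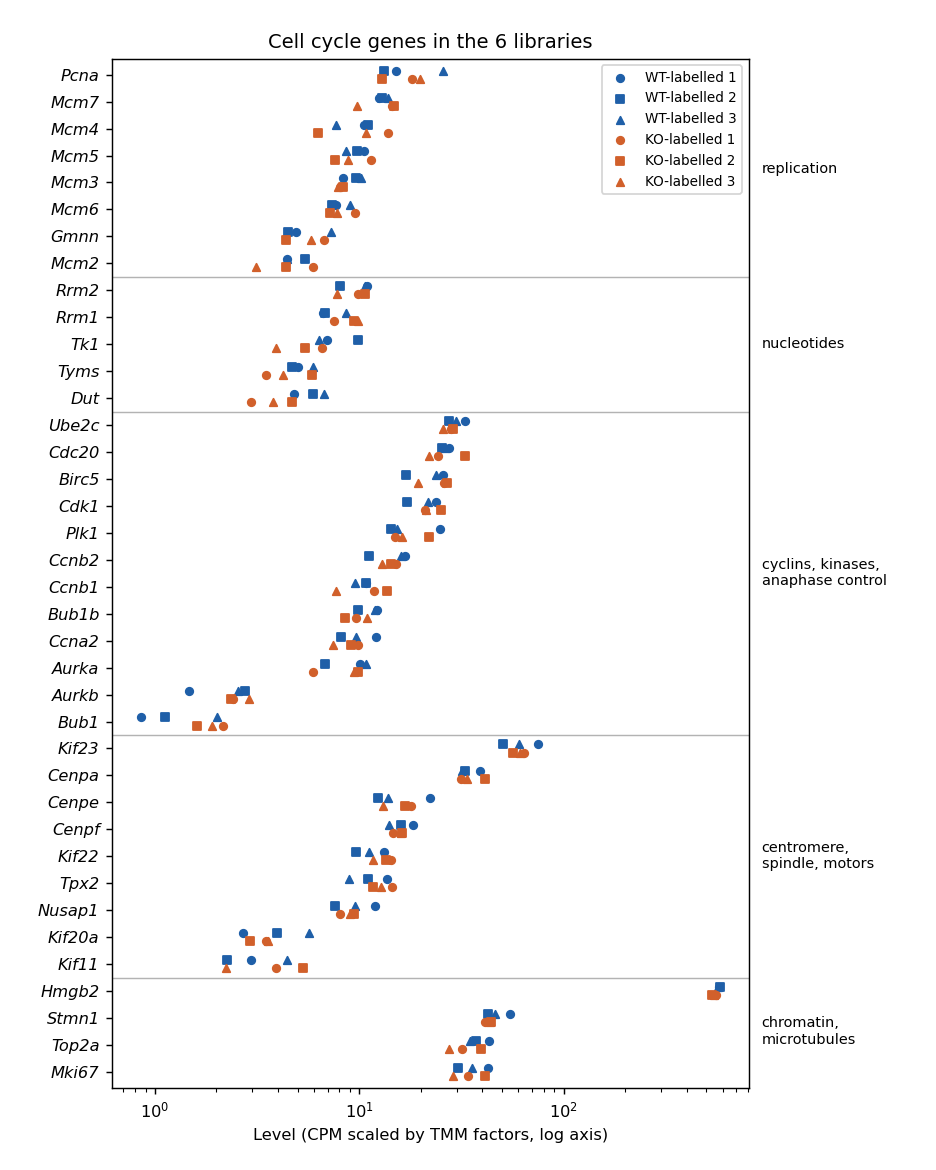
Level of each of the 38 genes in each library, in CPM scaled by TMM factors on a log axis, ordered by role and by mean level; colours mark the label and symbols the replicate. Hmgb2 stands alone above 500 CPM, Bub1 and Aurkb lie lowest, and colours overlap for every gene except Dut and Hmgb2.

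The libraries held 7018388 to 9664381 counts each, and 1 count corresponded to 0.103 to 0.142 CPM. Of 10397 genes tested across the table with edgeR's quasi-likelihood test and Benjamini-Hochberg adjustment, 107 passed an adjusted p of 0.05 (1.03%), of which 82 were lower under the KO label (0.789%) and 25 were higher (0.24%). The lower share was 76.6%, against 88.9% (144 lower, 18 higher) when libraries were scaled by total counts alone and 65.5% with DESeq2. The targeted gene went against the labels: Snph (chromosome 2, 151590549 to 151632593, minus strand, GRCm38) had counts of 0, 0 and 0 in the WT-labelled libraries and 5, 2 and 8 in the KO-labelled ones. The deleted part is not known here, and a 3′ tag can lie outside it. Whether the labels were exchanged was not tested, and an exchange would reverse every direction given here. Libraries are therefore named by their label throughout, and the direction of every difference is that of the labels.

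All 38 members passed the filter on low counts. None was lower and none was higher at an adjusted p of 0.05, and the smallest adjusted p was 0.4449 (Dut, edgeR). At an unadjusted p of 0.05 the count was also 0 of 38 with edgeR, against 11.4% of all tested genes. It was 0 with DESeq2 and 1 (Tk1) with limma-voom, for which the share of all tested genes was not calculated. The log2 fold change, KO-labelled over WT-labelled, was below 0 for 25 members (65.8%, against 49.1% of all tested genes) and above 0 for 13. Its median was −0.05 beside 0.01 for all tested genes. It ran from −0.61 (Dut) to 0.52 (Bub1). Libraries of the 2 groups did not overlap for 2 of 38 members (5.26%), Dut and Hmgb2, against 16.8% of all tested genes. For 31 members the group means differed by less than the larger of the 2 SDs, and for 36 the WT-labelled libraries alone spanned more than the difference between the means. The shares of all tested genes were not calculated for these 2 counts, so they do not set the members apart.

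The precision of these null calls can be read from the intervals. For 32 of 38 members (84.2%) the 95% interval of the fold change lay within 2-fold in both directions, against 73.5% of all tested genes, and for 20 (52.6%) within 1.5-fold, against 50.8%. The 6 members whose interval reached past 2-fold were Tk1, Dut, Aurkb, Bub1, Kif11 and Kif20a. Standard errors on the log2 scale ran from 0.07 (Hmgb2) to 0.50 (Bub1): the 21 members with a mean of at least 10 CPM had errors of at most 0.26, and the 7 with a mean under 5 CPM had errors of at least 0.29.

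**Figure D2:**
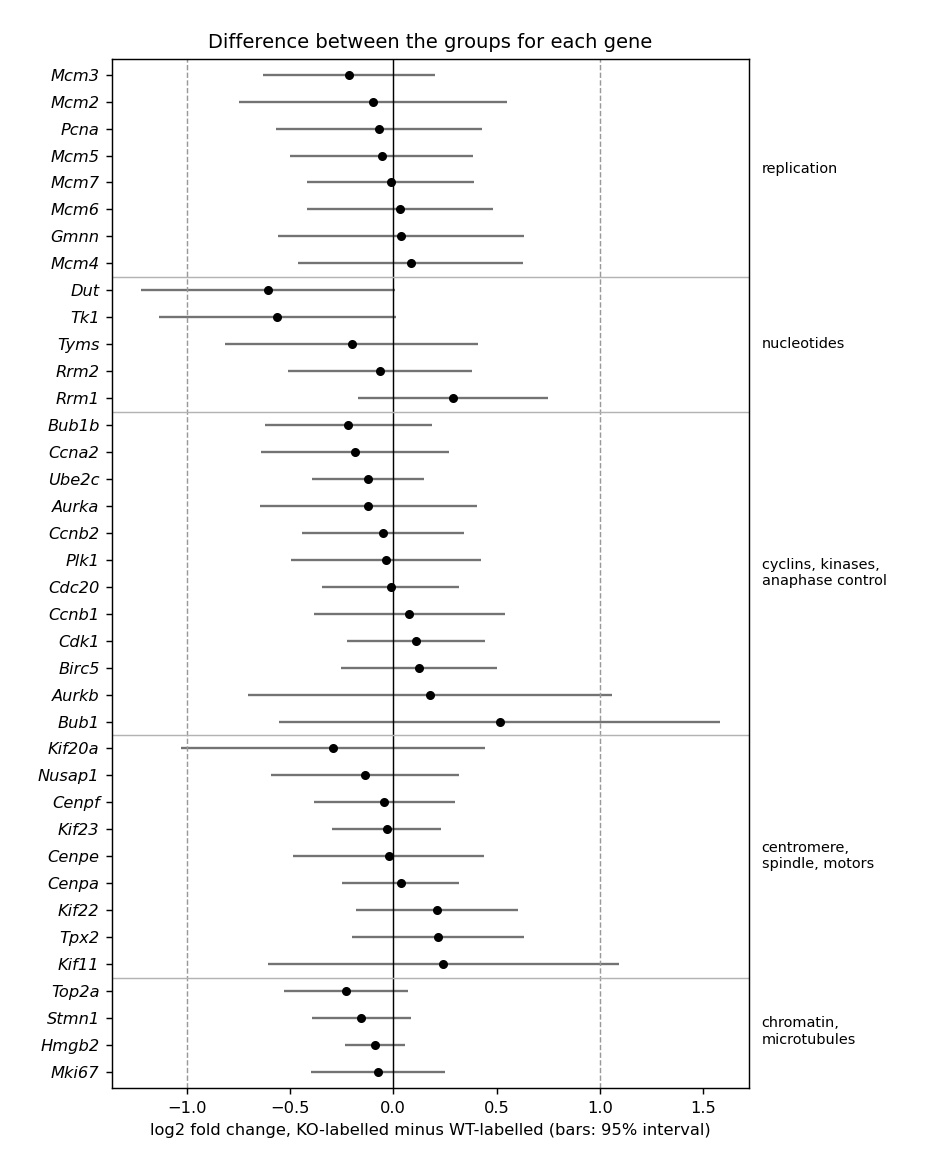
Log2 fold change of each gene, KO-labelled minus WT-labelled, as a point with its 95% interval, by role; dashed lines mark 2-fold. Every interval crosses 0, and 6 of 38 reach past a dashed line.

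None of the licensing and fork genes differed past the threshold. They load and run the replicative helicase (Mcm2 to Mcm7), clamp the polymerase to DNA (Pcna) or keep origins from being licensed again (Gmnn). Their summed level was 74.0, 73.8 and 86.7 CPM in the WT-labelled libraries and 88.1, 66.0 and 73.9 CPM in the KO-labelled ones, and 5 of 8 log2 fold changes were below 0. Pcna (chromosome 2, 132249162 to 132253314, minus strand) measured 15.2, 13.1 and 25.7 CPM under the WT label and 18.0, 12.9 and 19.9 CPM under the KO label. WT-labelled library 3 was the highest of the 6, and the groups overlapped throughout (log2 fold change −0.07, SE 0.23, edgeR adjusted p = 0.947). Mcm7 (chromosome 5, 138164583 to 138172422, minus strand) measured 12.5, 12.9 and 13.8 CPM against 14.5, 14.8 and 9.79 CPM, with 2 KO-labelled libraries above and 1 below all those of the WT label (log2 fold change −0.01, SE 0.19, edgeR adjusted p = 0.987). Mcm3 had the lowest log2 fold change of the group, −0.21, and Mcm4 the highest, 0.08; Mcm2, Mcm5, Mcm6 and Gmnn lay between. The 6 helicase subunits act as one ring, yet Mcm7 gave 2.98 times the tags of Mcm2 (median over libraries, range 2.40 to 3.37). Mcm7 shares exon bases with other genes on both strands, so its tags may be mixed. QuantSeq counts do not grow with transcript length, so levels of different genes are compared here as tags. How far tags of different genes reflect their numbers of transcripts was not tested.

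Nucleotide supply held the members with the smallest p-values. Dut clears dUTP, and Tk1 salvages thymidine. Dut (chromosome 2, 125247190 to 125258608, plus strand) measured 4.77, 5.91 and 6.72 CPM under the WT label and 2.96, 4.69 and 3.78 CPM under the KO label, and the highest KO-labelled value lay just below the lowest WT-labelled one. Its means were 5.80 ± 0.979 and 3.81 ± 0.868 CPM (SD, n = 3 each; log2 fold change −0.61, SE 0.29, 95% interval −1.22 to 0.01, edgeR adjusted p = 0.445). Tk1 (chromosome 11, 117815526 to 117826092, minus strand) measured 6.97, 9.89 and 6.32 CPM against 6.59, 5.43 and 3.90 CPM, with KO-labelled library 1 above WT-labelled library 3 (log2 fold change −0.56, SE 0.27, 95% interval −1.13 to 0.01, edgeR adjusted p = 0.455). Rrm1 and Rrm2 are the subunits of ribonucleotide reductase, which makes deoxyribonucleotides. Rrm1 (chromosome 7, 102441695 to 102469771, plus strand) measured 6.61, 6.83 and 8.60 CPM against 7.53, 9.39 and 9.91 CPM (log2 fold change 0.29, SE 0.22, edgeR adjusted p = 0.681). Rrm2 (chromosome 12, 24708241 to 24714146, plus strand) measured 10.9, 8.05 and 10.6 CPM against 9.81, 10.7 and 7.79 CPM (log2 fold change −0.06, SE 0.21, edgeR adjusted p = 0.944). The Rrm1 values leaned toward the KO label and those of Rrm2 did not, and both overlapped between groups. Thymidylate synthase (Tyms) had a log2 fold change of −0.20 with an SE of 0.29.

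Mitotic cyclins, kinases and the genes of anaphase control were the largest role, with 12 members, and 7 of their log2 fold changes were below 0. Their summed level was 198.7, 152.2 and 179.3 CPM in the WT-labelled libraries and 171.2, 195.4 and 157.6 CPM in the KO-labelled ones, so that the highest and the lowest library both carried the WT label. Ube2c, the ubiquitin-conjugating enzyme of the anaphase-promoting complex, lies on chromosome 2 (164769898 to 164778822, plus strand). It measured 32.8, 27.5 and 29.6 CPM against 28.1, 28.8 and 25.7 CPM (log2 fold change −0.12, SE 0.13, edgeR adjusted p = 0.794). Cdc20, an activator of the same complex, lies on chromosome 4 (118432901 to 118437352, minus strand). It measured 27.5, 25.5 and 26.3 CPM against 24.2, 33.0 and 21.8 CPM, with KO-labelled libraries 2 and 3 as the highest and the lowest of the 6 (log2 fold change −0.01, SE 0.15, edgeR adjusted p = 0.985). The 3 cyclins Ccna2, Ccnb1 and Ccnb2 had log2 fold changes of −0.18, 0.08 and −0.05, and their partner kinase Cdk1 had 0.11. The kinase Plk1, with −0.04, measured 24.8 CPM in WT-labelled library 1 and 14.3 CPM in WT-labelled library 2. Aurka, the kinase of the spindle poles, gave −0.12. Aurkb and Birc5 belong to the chromosomal passenger complex and gave 0.18 and 0.13. The checkpoint genes Bub1 and Bub1b gave 0.52 with an SE of 0.50 and −0.22 with an SE of 0.19. Within pairs of relatives, Ccnb2 gave 1.41 times the tags of Ccnb1 (median over libraries, range 1.04 to 1.68), Aurka 3.73 times those of Aurkb (2.44 to 6.83) and Bub1b 5.85 times those of Bub1 (4.50 to 14.3).

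None of the centromere, spindle and motor genes passed the test either, with 5 of 9 log2 fold changes below 0 and summed levels of 198.7, 146.6 and 159.6 CPM against 171.8, 173.8 and 163.1 CPM. Kif23, a kinesin of the central spindle needed for cytokinesis, was the most abundant of the mitosis members (chromosome 9, 61915905 to 61946774, minus strand). It measured 74.9, 50.8 and 60.2 CPM under the WT label and 63.7, 56.8 and 60.9 CPM under the KO label. All 3 KO-labelled values fell inside the WT-labelled range (log2 fold change −0.03, SE 0.12, edgeR adjusted p = 0.954). Cenpa, the histone H3 variant of the centromere (chromosome 5, 30666777 to 30674830, plus strand), measured 38.8, 32.9 and 31.9 CPM against 31.3, 41.4 and 33.7 CPM (log2 fold change 0.04, SE 0.13, edgeR adjusted p = 0.952). The kinetochore proteins Cenpe and Cenpf gave −0.02 and −0.04. Among motors, Kif11, which pushes spindle poles apart, gave 0.24 with an SE of 0.40, Kif20a −0.29 with an SE of 0.34 and Kif22 0.21 with an SE of 0.18. The spindle proteins Nusap1 and Tpx2 gave −0.14 and 0.22. Motors were far apart in tags: Kif23 gave 19.5 times those of Kif11 (median over libraries, range 10.8 to 27.4).

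Chromatin and microtubule proteins of dividing cells included the most abundant member. Their 4 genes summed to 719.2, 692.6 and 686.5 CPM under the WT label and 662.7, 656.0 and 642.2 CPM under the KO label, without overlap. Hmgb2 made up most of each sum, and Stmn1, Top2a and Mki67 each overlapped between the labels. Hmgb2, a DNA-bending chromatin protein (chromosome 8, 57511907 to 57515999, plus strand), measured 579, 582 and 570 CPM under the WT label and 556, 532 and 542 CPM under the KO label. The groups did not overlap, but the difference was small (log2 fold change −0.09, SE 0.07, 95% interval −0.23 to 0.06, edgeR adjusted p = 0.707). Hmgb2 gave 9.13 times the tags of Kif23 (median over libraries). Stmn1 (stathmin), which destabilises microtubules, lies on chromosome 4 (134468320 to 134473843, plus strand). It measured 54.7, 42.8 and 46.4 CPM against 41.3, 44.0 and 43.9 CPM, with WT-labelled library 1 standing highest (log2 fold change −0.15, SE 0.11, edgeR adjusted p = 0.674). Top2a, the topoisomerase that untangles sister chromatids (chromosome 11, 98992943 to 99024189, minus strand), measured 42.9, 37.3 and 34.8 CPM against 31.7, 39.3 and 27.5 CPM. KO-labelled library 2 lay within the WT-labelled range and the other two KO-labelled libraries lay below it (log2 fold change −0.23, SE 0.14, edgeR adjusted p = 0.594). The proliferation marker Mki67 (chromosome 7, 135689784 to 135716361, minus strand) ran from 28.7 to 42.7 CPM over all libraries, with a log2 fold change of −0.07 and an SE of 0.15. All 4 log2 fold changes of this role were below 0.

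**Figure D3:**
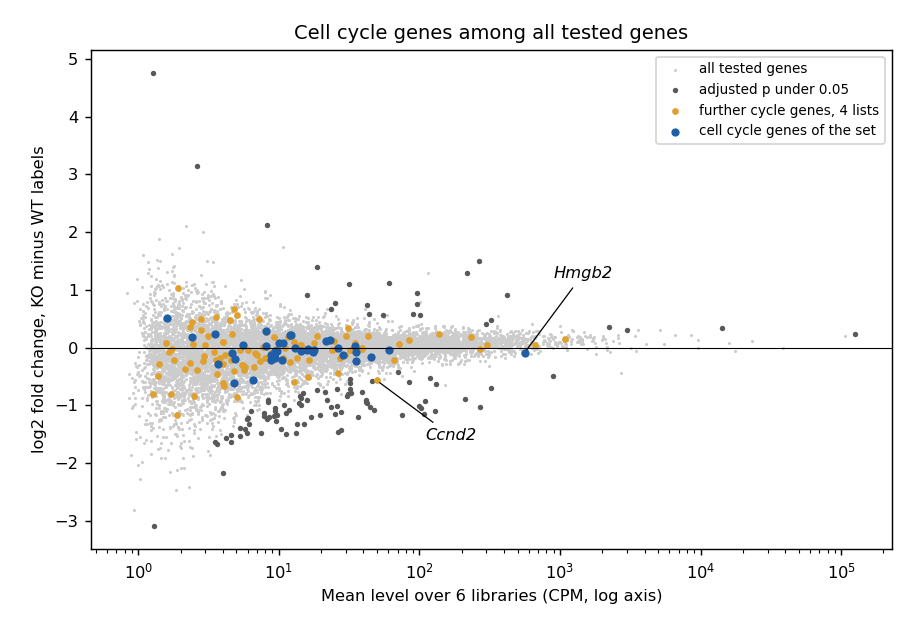
Log2 fold change (KO-labelled minus WT-labelled) against mean level over the 6 libraries in CPM on a log axis, for all 10397 tested genes, those with an adjusted p under 0.05, the 38 cell cycle genes and the 4 further lists of cycle genes. The 38 genes spread around 0 and narrow with level, and Ccnd2 is the one listed gene past the threshold.

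Mitosis members also varied between libraries of one label. The 21 mitosis members summed to 397.4, 298.7 and 338.9 CPM in the WT-labelled libraries and 343.0, 369.2 and 320.7 CPM in the KO-labelled ones. Their group means were 345.0 ± 49.6 and 344.3 ± 24.3 CPM (SD, n = 3 each). WT-labelled library 1 was above WT-labelled library 2 for 17 of 21 mitosis members (81.0%), as it was for 49.6% of all tested genes. For the 13 DNA synthesis members that count was 6 (46.2%), and their sums in the same libraries were 108.3 and 109.2 CPM. Taking each gene's log2(CPM + 0.5) minus its mean over the 6 libraries, the median of the mitosis members was 0.19 in WT-labelled library 1 and −0.25 in WT-labelled library 2, and that of the DNA synthesis members −0.04 and 0.00. DNA synthesis members stood highest in WT-labelled library 3 (median 0.14, sum 124.9 CPM). They were lowest in KO-labelled library 3 by the median (−0.13, sum 103.5 CPM) and in KO-labelled library 2 by the sum (102.1 CPM, median −0.06). In WT-labelled library 3 and KO-labelled libraries 1 and 3 the medians of both sets shared a sign: those of the mitosis members were 0.04, 0.03 and −0.04, and those of the DNA synthesis members 0.14, 0.08 and −0.13. The further lists described below did not repeat the contrast of WT-labelled libraries 1 and 2: further replication genes summed to 176.9 and 157.7 CPM there, and further mitosis genes to 480.5 and 449.6 CPM. Members are not replicates of a library, so these are descriptions of 6 libraries with no test. The erythroblast markers, from another dividing lineage of marrow, summed to 1313 CPM in WT-labelled library 1 and 2156 CPM in WT-labelled library 2. The markers listed for the azurophil granule stage of neutrophil precursors summed to 283 and 255 CPM there. Cebpe alone made up most of that list's mean sum, so the sum mostly follows 1 gene. The part of either list in the difference between these libraries was not tested.

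**Figure D4:**
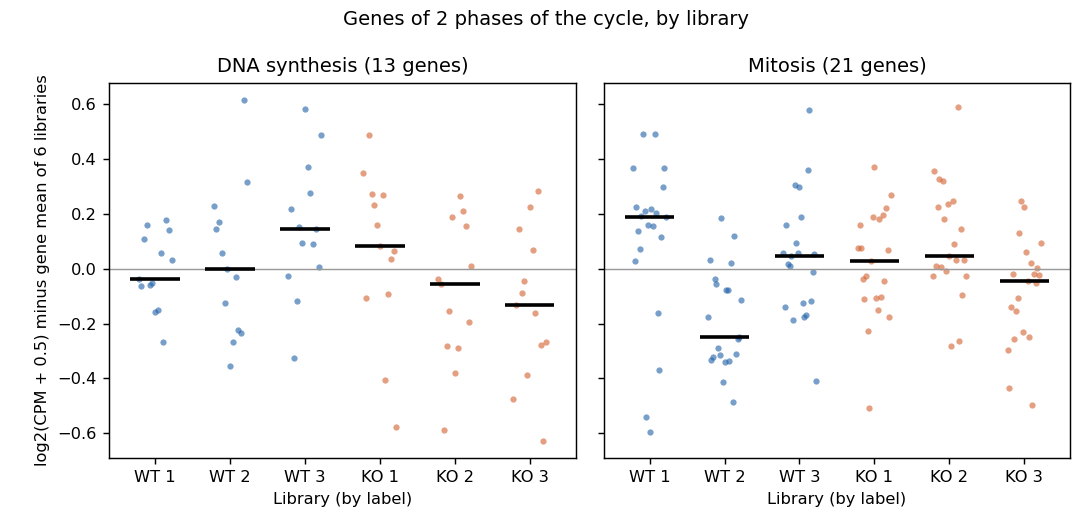
Each point is 1 gene in 1 library, as log2(CPM + 0.5) minus the gene's mean over the 6 libraries, for 13 DNA synthesis genes and 21 mitosis genes; bars are medians. Mitosis genes are high in WT-labelled library 1 (median 0.19) and low in library 2 (−0.25), where the DNA synthesis medians are −0.04 and 0.00; in 3 of the other 4 libraries both medians share a sign.

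Genes of the same pathways outside the 38 were read from 4 further lists. Of 28 further replication genes, 23 were tested and none was called in either direction, also at an unadjusted p of 0.05 (edgeR; median log2 fold change −0.21). The most abundant were Slbp, the histone mRNA binding protein, at 34.0 ± 0.788 CPM under the WT label and 36.1 ± 0.452 CPM under the KO label, and the maintenance methyltransferase Dnmt1 at 17.4 ± 1.45 and 20.0 ± 4.48 CPM. Of 45 further mitosis genes, 42 were tested and none was called (median −0.04). At an unadjusted p of 0.05 edgeR gave 3 of 42 (7.14%), below the 11.4% of all tested genes. These were Cdc25b above 0 and Smc4 and Cenpm below 0, of which Cdc25b and Cenpm are named after their values were seen. The most abundant of that list were the Cdk-binding protein Cks2, at 69.8 ± 6.66 and 72.6 ± 6.16 CPM, and the condensin subunit Smc4, at 70.3 ± 1.64 and 61.0 ± 4.35 CPM (edgeR adjusted p = 0.391). Of 14 CDK inhibitors and antiproliferative genes, 11 were tested and none was called (median 0.08). Of the 11, 1 had an unadjusted p under 0.05 (9.09%, against 11.4% of all tested genes): Cdkn1b (p27), named after its value was seen, with a log2 fold change of 0.24 (SE 0.08). Btg1 and Btg2, antiproliferative genes of quiescent cells, were the most abundant, at 652.5 ± 54.1 and 672.6 ± 57.8 CPM and at 297.0 ± 14.2 and 306.7 ± 27.2 CPM.

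The list of G1 and S phase entry regulators held the one call. Of 23 genes 20 were tested, 1 was lower, none was higher, and the median was −0.09. Ccnd2 (cyclin D2, chromosome 6, 127125162 to 127152193, minus strand), which drives entry into the cycle with Cdk4 and Cdk6, measured 58.0, 50.3 and 69.9 CPM under the WT label and 37.8, 41.8 and 40.4 CPM under the KO label. Every KO-labelled library lay below every WT-labelled one, and the level was 1.48-fold lower (log2 fold change −0.57, SE 0.12, edgeR adjusted p = 0.0361). The call was lost with limma-voom (adjusted p = 0.0656). In edgeR it was lost on leaving out WT-labelled library 1 (adjusted p = 0.110) or 3 (0.138) or KO-labelled library 1 (0.115), 2 (0.0802) or 3 (0.0862). It held without WT-labelled library 2 (0.0378). It also held with DESeq2 (adjusted p = 0.00788). In edgeR it held with the other scalings, without the filter and with the 5 CPM filter (adjusted p of 0.0366 or less). With the replicate block it held narrowly (edgeR adjusted p = 0.0498). Its exons overlap those of 9330179D12Rik and Gm43126 on the other strand, and since the strand setting of the counting is not known here, their tags may be mixed. The macrophage markers moved with it: their sum was 1531, 1496 and 1598 CPM under the WT label and 793, 807 and 942 CPM under the KO label, and 11 of 12 were called lower. Their part in the Ccnd2 difference was not tested. At an unadjusted p of 0.05 there were 5 of 20 in this list (25.0%, against 11.4% of all tested genes), all below 0, which were Ccnd2 and, named after their values were seen, Ccnd1, Cdc25a, E2f1 and Myb, none of the latter with an adjusted p under 0.05. Ccnd3 (cyclin D3) and E2f2 were the most abundant, at 1033.8 ± 59.3 and 1153.3 ± 108.7 CPM and at 271.2 ± 24.1 and 267.7 ± 8.43 CPM. Neither differed past the threshold. Ccnd3 gave 23.4 times the tags of Ccnd2 (median over libraries, range 13.8 to 31.5), and E2f2 gave 23.0 times those of E2f1 (15.7 to 26.4).

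Markers of the cells that could carry these transcripts were read in the same libraries. Neutrophil genes dominated: Ngp and Camp of the specific granule stage stood at 22245 ± 185 and 15403 ± 986 CPM under the WT label and 24041 ± 1342 and 16269 ± 608 CPM under the KO label. The 5 markers of that stage summed to 57018 to 57800 CPM against 59660 to 64071 CPM, without overlap, with 0 of 5 called. S100a8 and S100a9 of mature neutrophils stood at 115710 ± 6629 and 98520 ± 3109 CPM under the WT label and 136870 ± 6240 and 112900 ± 4258 CPM under the KO label. The 9 mature markers summed to 226110 to 246600 CPM against 264510 to 281920 CPM, again without overlap. All 9 had log2 fold changes above 0, 7 of 9 had an unadjusted p under 0.05, and 2 (S100a8 and Retnlg) were called higher. The part of this difference in the members' values was not tested. Azurophil granule stage markers, listed for neutrophil precursors, summed to 283, 255 and 261 CPM under the WT label and 239, 298 and 252 CPM under the KO label, with 0 of 9 called. Their log2 fold changes ran from −0.59 to 0.70. An unadjusted edgeR p under 0.05 was found for 2 of 9 (22.2%, against 11.4% of all tested genes), 1 below 0 and 1 above. Cebpe and Fcnb led that list with 156.2 ± 6.23 and 39.6 ± 0.617 CPM under the WT label and 155.6 ± 17.7 and 42.0 ± 4.20 CPM under the KO label. Cebpe alone thus made up most of the mean sum under either label. Stem and progenitor markers summed to 14.4 to 22.7 CPM, led by Kit and Hlf, with 0 of 3 tested called. Erythroblast markers summed to 1313, 2156 and 2069 CPM against 1692, 2812 and 1428 CPM, mostly the globins Hba-a2 and Hbb-bs, and 0 of 14 tested were called. B cell and B precursor markers, led by Ighm and Cd79b, summed to 118 to 128 CPM against 91.3 to 110 CPM with 0 of 9 tested called. Their median log2 fold change was −0.42, and 2 of 9 had an unadjusted edgeR p under 0.05 (22.2%, against 11.4% of all tested genes), both below 0. Of the 15 listed genes, 2 were at 0 in every library, the precursor genes Vpreb2 and Rag2. The rest, which include other precursor genes, had counts. The set is labelled as genes of residual proliferating precursors. Specific granule stage, azurophil stage, progenitor, erythroid and B lineage transcripts were all present beside it. Which of these cells carried the 38 genes was not tested.

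Other lists did hold calls. Beside the macrophages, led by Vcam1 and Slc40a1, plasma cell genes were higher in the KO-labelled libraries (3 of 5 tested; sums of 235 to 302 CPM against 457 to 1230 CPM, led by Igkc and Igha), and megakaryocyte and platelet genes were lower (4 of 6 tested, with Tubb1 at 0 in every library; sums of 138 to 175 CPM against 65.7 to 96.8 CPM, led by Ppbp and Pf4). Of monocyte genes, led by Ly6c2 and Csf1r, 1 of 7 was lower (Irf8). Of eosinophil and basophil genes, led by Ccr3 and Prg2, 1 of 5 was lower (Ccr3; sums of 52.4 to 78.1 CPM against 31.2 to 47.3 CPM), and of T and NK cell genes, led by Cd3d and Cd4, 0 of 3 were called. Sums that did not overlap between the labels were thus those of specific granule stage, mature neutrophil, B cell, plasma cell, macrophage, megakaryocyte and eosinophil and basophil genes. Among the members they were those of the chromatin and microtubule role, which were mostly Hmgb2. The sums of the mitosis and of the DNA synthesis members overlapped.

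**Figure D5:**
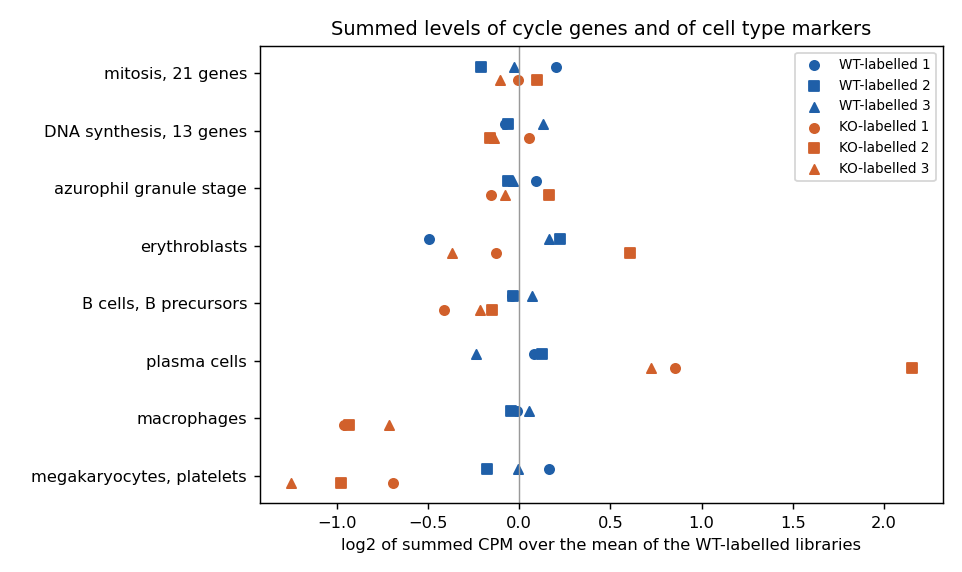
Summed CPM of the mitosis and DNA synthesis members and of 6 lists of cell type markers in each library, as log2 of the sum over the mean of the WT-labelled libraries. Macrophage, megakaryocyte, plasma cell and B cell sums separate the 2 labels, and the sums of the cycle genes, the azurophil granule stage and the erythroblasts overlap. Cebpe makes up most of the mean azurophil granule stage sum under either label.

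The differences between groups can be set beside the promoter letters. The 16 members with TTTGAA letters had a median log2 fold change of −0.05 and the 15 matched members without them −0.05; the 5 with E2F letters had −0.01 and the 26 without −0.06. In the annotation, 11 members share exon bases with another gene: Mcm7, Stmn1 and Top2a with small RNA genes on the same strand, and 9 with a gene on the other strand (Ccna2, Cdc20, Kif20a, Kif22, Mcm7, Nusap1, Plk1, Tk1 and Ube2c). The counts of these genes may include tags of the partner. The 6 pseudogenes named after members had no counts, except Ccnb2-ps with up to 2 in a library.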

How the data were processed

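RNA of 6 samples of Ly6G-selected bone marrow neutrophils was sequenced with the Lexogen QuantSeq kit, per the labels' protocols. The authors deposited raw counts, whole numbers per Ensembl identifier. The submitters' processing notes list RSEM 1.2.3, DESeq2 and mm10 without their role; the aligner, annotation release, strand setting and any filter were not given in the sources used here. Table columns were matched to samples by name.

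Gene names, positions and exon overlaps came from GENCODE vM21 (GRCm38); 51596 of 51789 identifiers were named, and the other 193 held 0.00812% of counts. All genes were fitted with edgeR 4.0.16 in R 4.3.3 (glmQLFit, glmQLFTest) with the label as the one term. Scaling was by TMM, the filter was filterByExpr (minimum count 10, minimum total 15), and p-values were adjusted by Benjamini-Hochberg over 10397 genes. Standard errors are the log2 fold change over the square root of F. No pair of replicates agreed within sampling noise (chi-square per degree of freedom 4.12 to 6.79). The code was tested on simulated data.

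The members and lists were chosen with earlier results of these data known. Values per library are given for the 2 most abundant members of each role and the 4 smallest p-values. Of pathway lists the text names called genes and the 2 most abundant, and of cell type lists the 2 most abundant. Alternatives were DESeq2 1.42.0, limma-voom (limma 3.58.1), 3 other scalings, leaving out the filter, requiring 5 CPM in 3 libraries, a replicate block and leaving out each library.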

Additional observations from a re-analysis of the deposited data

How the results depend on the processing

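The count of members called lower or higher was 0 in each of the 14 alternative settings, leaving out any library included (0 to 0), and also at adjusted p thresholds of 0.01 and 0.1. The median log2 fold change of the members was −0.05 and ran from −0.13 (without WT-labelled library 2) to 0.02 (without KO-labelled library 3) when 1 library was left out; it was also above 0 without WT-labelled library 1 (0.01). Scaling by total counts gave −0.15, with a median of −0.10 over all tested genes; relative to all genes the members stood at −0.05 under either scaling. Members with an unadjusted p under 0.05 numbered 0 in the main edgeR fit, against 11.4% of all tested genes. They numbered 5 with total counts (Top2a, Tk1, Dut, Stmn1 and Hmgb2, smallest edgeR adjusted p 0.1985) and 0 to 2 in the other settings. The share of all tested genes was not calculated for these settings, so their counts do not set the members apart. Of 526 member values under alternatives, 2 moved by more than the spread between replicates, namely Bub1 without WT-labelled library 3 (0.92) and Hmgb2 with total counts (−0.19).

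The replicate numbers gave no sign of pairing: deviations of same-numbered samples correlated at −0.05, 0.02 and −0.01 over genes. No sample correlated best with its own number. The highest values were for WT 3 with KO 1 (0.19), WT 1 with KO 2 (0.16) and WT 2 with KO 3 (0.14). Deviations from a mean of 3 samples sum to 0, so these correlations are tied to each other and cannot exclude pairing. With the replicate number as a block, 0 members were called, their median was −0.04, and 92 genes were called in all, against 107. Counts over all genes were 162 with total counts, 174 with DESeq2, 287 with no filter, and 49 to 97 with 1 library left out. Depth limits the rarest members: Bub1 had 7 to 17 counts and Aurkb 12 to 27 counts in a library, and their 95% intervals reached past 2-fold. With 3 libraries a group, single outlying libraries were not tested for.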
